A study of Mus musculus with 6 samples.

Results

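Complement is a cascade of secreted proteins that marks cells, debris and synapses for removal, with receptors on the cells that respond. Of 9 listed complement components and receptors (C1qa, C1qb, C1qc, C2, C3, C4b, C3ar1, C5ar1 and Serping1), 8 were measured among 22180 genes. They were taken from features carrying exactly 1 gene symbol, with the highest mean over all arrays where a gene had several, and each measured member had 1 feature. C3 was not analysed here.

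RNA from 6 mouse medulloblastomas, tumours of the cerebellum, was hybridised to Affymetrix whole-transcript arrays, 1 array per tumour. The 3 tumours labelled Crebbp wild type had the genotype Math1Cre::SmoM2Fl/+, and the 3 labelled Crebbp knockout had Math1Cre::CrebbpFl/FlSmoM2Fl/+. Every tumour thus carried SmoM2, a constitutively active Smoothened, the transducer of Sonic hedgehog (SHH) signals, and the design text names the driver Math1CreERT2, a tamoxifen-dependent Cre recombinase under control of the granule neuron progenitor gene Math1 (Atoh1). Tamoxifen (1 mg) was given to every animal on postnatal day 5, and the tumours were taken on postnatal day 60, so the age label of postnatal day 5 was read as the day of induction. Cells that do not express Math1, among them microglia, vessel cells and most glia, would keep an intact Crebbp in both groups.

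In the brain, C1q is made mainly by microglia. It consists of an A, a B and a C chain, encoded side by side by C1qa, C1qb and C1qc, and it opens the classical pathway when it binds a surface. C1q-bound proteases then cleave C4 and C2, whose fragments form the enzyme that cleaves C3. The fragments C3a and C5a act through the receptors encoded by C3ar1 and C5ar1, and the C1 inhibitor encoded by Serping1 blocks the C1q-bound proteases. C4 is also made by astrocytes, and C1 inhibitor by fibroblasts, vessel cells and glia.

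The promoters of C1qb and C1qc are shown because these neighbouring genes had similar profiles over the tumours (r = 0.958 over 6 arrays, a description). RefSeq sequences (GRCm38.p6) were matched for 4 of the 8 members, namely C1qb, C1qc, C3ar1 and C5ar1. Each line below gives the 250 bases before the start site, 5′ to 3′ on the gene's strand, and capitals mark GAGGAA or its reverse complement, the core bound by PU.1, a transcription factor of the myeloid lineage encoded by Spi1. The C1qb window is chr4:136886201-136886450 and the C1qc window chr4:136892915-136893164, both on the minus strand.
C1qb: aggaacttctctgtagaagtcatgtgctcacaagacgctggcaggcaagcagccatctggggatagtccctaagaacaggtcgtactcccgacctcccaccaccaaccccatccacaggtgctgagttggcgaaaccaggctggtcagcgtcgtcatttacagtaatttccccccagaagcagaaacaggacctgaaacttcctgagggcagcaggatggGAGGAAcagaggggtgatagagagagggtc
C1qc: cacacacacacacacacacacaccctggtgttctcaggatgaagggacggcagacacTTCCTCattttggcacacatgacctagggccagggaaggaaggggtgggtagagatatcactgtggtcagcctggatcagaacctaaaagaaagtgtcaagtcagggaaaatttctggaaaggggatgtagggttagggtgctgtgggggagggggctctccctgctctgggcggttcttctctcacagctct
Both windows held 1 match, starting 30 bases before the start site in C1qb and 193 bases before it in C1qc. The C3ar1 and C5ar1 windows held 0 matches. Of 32851 promoter windows of the same length, 23.25% held the letters GAGGAA on either strand. The letters TGACG, part of the CREB site TGACGTCA, occurred once in the C1qb window and in 17.77% of all windows, and TGACGTCA itself occurred in 0 of the 4 windows and in 1.546% of all. TTCNNNGAA (STAT factors), also searched on both strands, occurred in 0 of the 4 windows and in 7.02% of all.

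Some facts of the arrays bear on all that follows. Crebbp was lower in each knockout tumour (11.24, 11.34 and 11.20 on the log2 scale) than in each wild type tumour (11.80, 11.76 and 11.70), with a log2 change of -0.50 (SE 0.09, limma adjusted p = 0.0948). The labels do not name the floxed exons, and the feature may hold probes outside the deletion. Xist was at 5.13 to 5.74 in wild type and 12.26 to 12.45 in knockout tumours, and Uty, Kdm5d and Eif2s3y of the Y chromosome were at 9.32 to 10.18 in wild type and 4.31 to 5.49 in knockout tumours. Genotype and sex therefore cannot be told apart in any comparison here. These 4 genes in the sex that lacks them gave 12 values between 4.31 and 5.74, which were taken as the level of an absent transcript. The mean of each of the 8 measured complement genes lay above them, as did that of 17540 of the 22180 genes. All 17 measured progenitor and SHH genes, Atoh1 among them (11.58 and 11.30 in the wild type and knockout means), lay above that range. The labels do not say that tumours came from separate litters, so p-values measure the spread between these samples only. In tissue RNA, fewer cells of a type and less RNA per cell cannot be told apart.

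The C1q chains, C4b and Serping1 had lower levels in each Crebbp knockout tumour than in any wild type tumour, but none passed the threshold over all genes. C2, C3ar1 and C5ar1 overlapped between the groups. Of the 8 genes, 7 had a negative log2 change (knockout minus wild type), as did 49.1% of all genes, and the median was -0.45 against 0.00 over all genes. In limma, 0 of 8 had an adjusted p under 0.05, a call made for 0.207% of all genes. At an unadjusted p under 0.05, 5 of 8 genes were lower in knockout tumours (C1qa, C1qb, C1qc, C4b and Serping1), against 6.51% of all genes lower at that level. In the same 5 genes the groups did not overlap and the knockout was the lower one, as in 9.43% of all genes. These counts describe a list assembled with earlier results of these arrays known. The exact two-sided permutation test over the arrays gave p = 0.1 for each of these 5 genes, the smallest that 3 against 3 arrays allow.

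**Figure D1:**
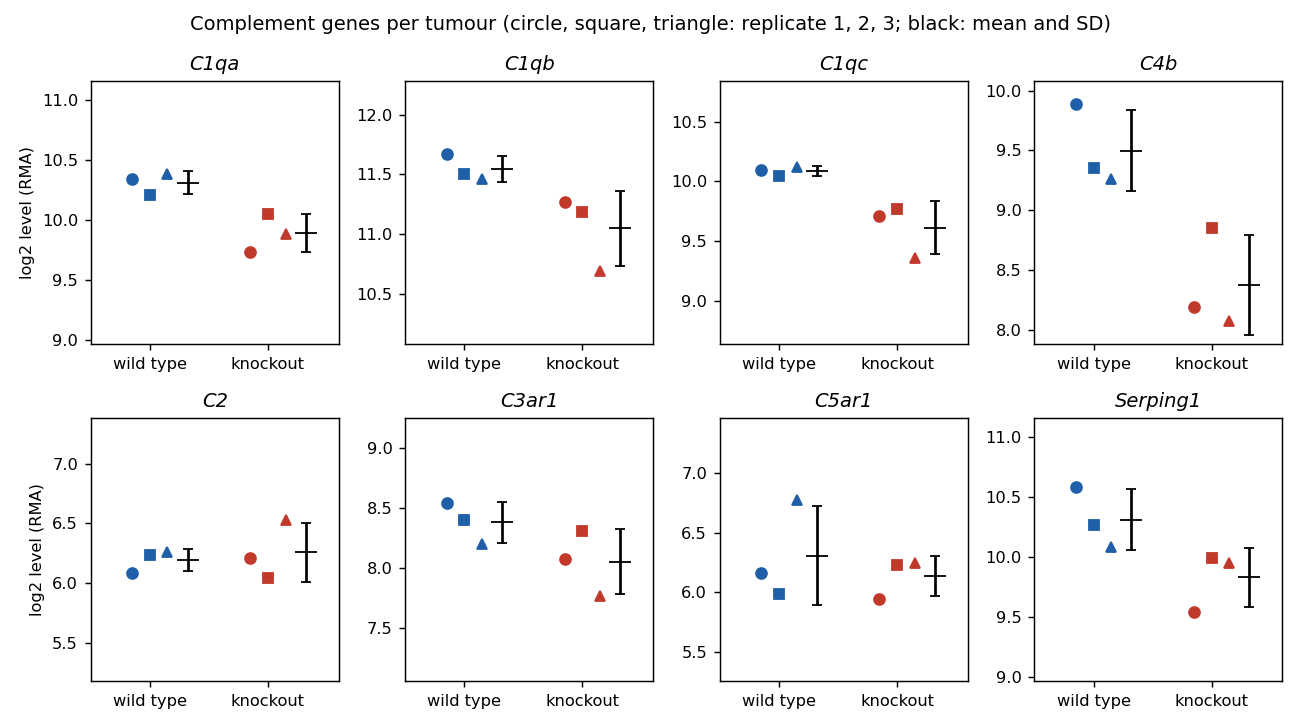
Log2 RMA level of the 8 measured complement genes in each tumour, wild type (blue) and knockout (red), with the group mean and SD in black (n = 3 each). Each panel spans the same number of log2 units; in C1qa, C1qb, C1qc, C4b and Serping1 the knockout points are separate from and under the wild type points, and C4b has the widest gap between means (9.50 and 8.37).

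The C1q chains, which open the cascade, come first. In wild type replicates 1, 2 and 3 the log2 level of C1qa, the A chain, was 10.34, 10.21 and 10.39, and in the knockout replicates it was 9.74, 10.05 and 9.88. The groups did not overlap, and knockout replicate 2 was nearest to the wild type range. The log2 change was -0.42 (SE 0.11, limma adjusted p = 0.184), a ratio of wild type over knockout of 1.34.

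The log2 level of C1qb, the B chain, was 11.67, 11.50 and 11.46 in wild type and 11.27, 11.19 and 10.69 in knockout tumours. Knockout replicate 3 stood well below the others, and the groups did not overlap. The change was -0.50 (SE 0.16, limma adjusted p = 0.243), and it was -0.32 without knockout replicate 3.

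C1qc, the C chain, had levels of 10.09, 10.04 and 10.12 in wild type tumours, a narrow range, and of 9.71, 9.77 and 9.36 in knockout tumours. Knockout replicate 3 was again lowest. The log2 change was -0.47 (SE 0.12, limma adjusted p = 0.184), a ratio of wild type over knockout of 1.39. The mean of the 3 chains was 10.65 ± 0.06 in wild type and 10.18 ± 0.19 in knockout tumours (SD, n = 3 each).

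C4b, which encodes the C4 protein that C1q-bound proteases cleave, had the largest difference of the 8 genes. It was at 9.88, 9.35 and 9.26 on the log2 scale in wild type and at 8.19, 8.85 and 8.08 in knockout tumours. The groups did not overlap, with wild type replicate 1 highest and knockout replicate 2 nearest to the wild type range. The log2 change was -1.13 (SE 0.24, 95% interval -1.67 to -0.58), a ratio of wild type over knockout of 2.18. It did not pass over all genes (limma adjusted p = 0.136), and it did without knockout replicate 2 (-1.37, SE 0.19, adjusted p = 0.0426). Over the other alternatives the adjusted p ran from 0.0887 to 0.331.

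C4b has a near-identical neighbour on chromosome 17, C4a, which encodes the sex-limited protein, named for its presence in males of some mouse strains, and how probes were assigned to each copy is not given, so both are uncertain. The C4a feature was at log2 levels of 5.78, 6.04 and 6.21 in wild type and 5.67, 6.33 and 6.14 in knockout tumours. The groups overlapped, and the change was 0.04 (SE 0.19, limma adjusted p = 0.953). The C4a values lay from just below to somewhat above the highest value of an absent transcript, 5.74.

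C2, the partner of C4 in the enzyme that cleaves C3, did not go with the other components. Its levels were 6.09, 6.24 and 6.26 in wild type and 6.21, 6.04 and 6.53 in knockout tumours, which overlapped. The change was 0.06 (SE 0.14, limma adjusted p = 0.881), with a 95% interval of -0.25 to 0.38, and it was -0.07 without knockout replicate 3. C2 was dim, so a change in it may be understated.

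The anaphylatoxin receptors followed. C3ar1, the receptor for C3a on microglia and macrophages, had levels of 8.54, 8.40 and 8.20 in wild type and 8.07, 8.31 and 7.77 in knockout tumours. The groups overlapped through wild type replicate 3 and knockout replicate 2. The change was -0.33 (SE 0.16, limma adjusted p = 0.401, 95% interval -0.69 to 0.03), and it ran from -0.46 without knockout replicate 2 to -0.19 without knockout replicate 3.

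C5ar1, the receptor for C5a on myeloid cells, had levels of 6.16, 5.98 and 6.77 in wild type and 5.95, 6.23 and 6.25 in knockout tumours. Wild type replicate 3 stood above the other 5 tumours, which shared one range. The change was -0.17 (SE 0.20, limma adjusted p = 0.773, 95% interval -0.63 to 0.30) and turned to 0.07 without that tumour. C5ar1 was as dim as C2 (means of 6.22 and 6.23), so a change in it may be understated too.

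Serping1, the gene of the C1 inhibitor, had levels of 10.59, 10.27 and 10.09 in wild type and 9.54, 9.996 and 9.95 in knockout tumours. The groups did not overlap, but wild type replicate 3 and knockout replicate 2 were close. The change was -0.48 (SE 0.17, limma adjusted p = 0.280), a ratio of wild type over knockout of 1.40, and it was -0.35 without wild type replicate 1 and -0.34 without knockout replicate 1. The inhibitor of the pathway was thus lower in the knockout group, as the C1q genes that open it were. The order of the tumours differed in part. Serping1 and C1qa were lowest in knockout replicate 1, and C1qb and C1qc in knockout replicate 3.

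Across the 8 genes the wild type tumours held most of the top ranks and the knockout tumours the bottom ones. Wild type replicate 1 had the highest value in 4 of the 8 genes and wild type replicate 3 in 3. Knockout replicate 3 had the lowest value in 4 and knockout replicate 1 in 3. The median deviation of the 8 genes from their own means was 0.29, 0.19 and 0.22 in wild type replicates 1, 2 and 3 and -0.21, -0.08 and -0.33 in the knockout replicates. Knockout replicate 2 was thus the knockout tumour nearest to the wild type ones. Without it 6 of the 8 genes had an unadjusted p under 0.05, without wild type replicate 1 it was 3, and without knockout replicate 1 it was 4.

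**Figure D2:**
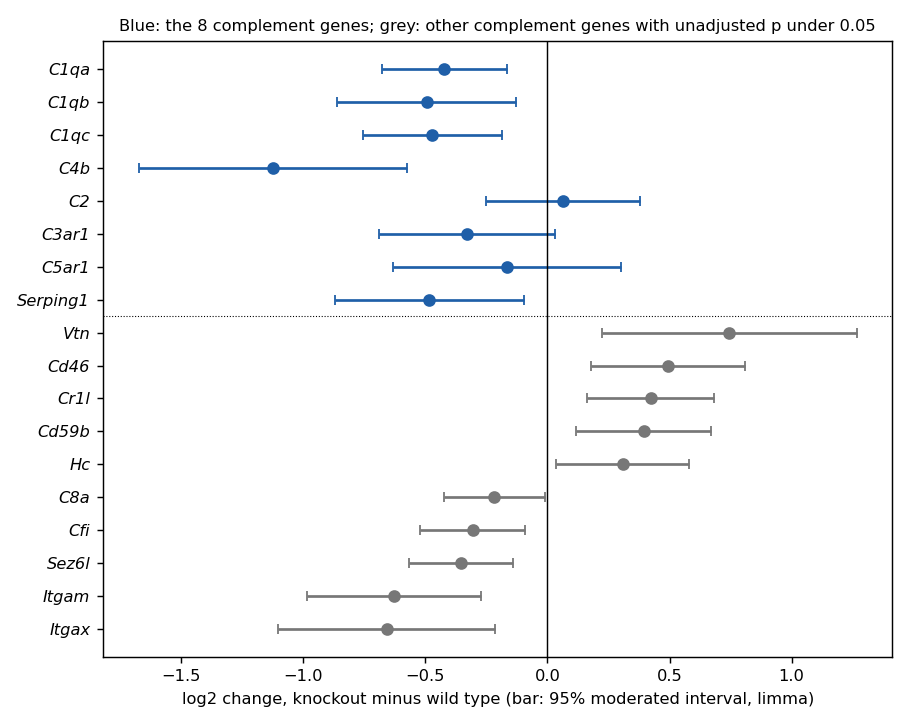
Log2 change, knockout minus wild type, with its 95% moderated interval, for the 8 complement genes (blue) and for the other complement genes with an unadjusted p under 0.05 (grey). C4b lies farthest from 0 at -1.13; the integrin chains Itgax and Itgam lie at -0.66 and -0.63, and the regulators Vtn, Cd46, Cr1l and Cd59b lie above 0.

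Over the rest of the pathway the changes went both ways. Of 52 other complement genes measured of 56 listed, 28 had a negative and 24 a positive log2 change (50.9% of all genes were positive), with a median of -0.01. In limma 0 passed an adjusted p of 0.05. At an unadjusted p under 0.05, 5 were lower and 5 higher, against 6.51% of all genes lower and 7.24% higher. By role, 0 of 7 genes in the group of C4a with the proteases of the classical and lectin pathways and 0 of 7 recognition proteins of the lectin pathway reached an unadjusted p under 0.05, and neither did Cfb (factor B) or Cfp (properdin). Of 7 terminal components, 4 had a mean level above that of absent transcripts. C8a, one of these, had a change of -0.22 (SE 0.09, limma adjusted p = 0.340). Hc, the gene of C5, had a change of 0.31 (SE 0.12, limma adjusted p = 0.314), but its mean of 5.50 lay within the range of absent transcripts and its groups overlapped.

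Complement receptor chains of myeloid cells were among the lower genes. Itgam, the alpha chain of complement receptor 3, had levels of 8.58, 8.04 and 8.35 in wild type and 7.77, 7.81 and 7.52 in knockout tumours. These did not overlap, and the change was -0.63 (SE 0.15, limma adjusted p = 0.175). Itgax, the alpha chain of complement receptor 4, had a log2 change of -0.66 (SE 0.19, limma adjusted p = 0.221), with knockout replicate 1 lowest at 6.42. Their shared beta chain Itgb2 had a change of -0.26 (SE 0.13, limma adjusted p = 0.446), and its groups overlapped.

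Regulators that protect host cells lay on both sides of 0. Of 18 measured regulators, 4 were higher and 1 lower at an unadjusted p under 0.05, against 7.24% and 6.51% of all genes. Cd46, a membrane cofactor for the cleavage of C3b and C4b, had levels of 7.50, 7.22 and 7.19 in wild type and 8.03, 7.68 and 7.66 in knockout tumours. The groups did not overlap, with the knockout above, as in 10.2% of all genes, and the change was 0.49 (SE 0.14, limma adjusted p = 0.200). Cr1l (Crry), a rodent membrane regulator of C3 cleavage that lies on chromosome 1 as Cd46 does, had levels of 8.98, 8.78 and 9.15 in wild type and 9.45, 9.35 and 9.39 in knockout tumours, again without overlap. Its change was 0.42 (SE 0.11, limma adjusted p = 0.185).

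Vtn, the gene of vitronectin, which binds terminal complexes and is also a pericyte marker, had a change of 0.74 (SE 0.23, limma adjusted p = 0.232), and its groups overlapped. Cd59b, an inhibitor of the membrane attack complex, had a log2 change of 0.39 (SE 0.12, limma adjusted p = 0.234). Its wild type mean of 5.77 was next to the highest value of an absent transcript. The related gene Cd59a, with a brighter mean of 7.49, had a log2 change of -0.12 (SE 0.27, limma adjusted p = 0.882), and its groups overlapped. Cfi, the protease factor I, had a log2 change of -0.31 (SE 0.09, limma adjusted p = 0.234), with all knockout values (5.64, 5.61 and 5.73) within the range of absent transcripts. Sez6l, a neuronal membrane protein with complement control domains, had a log2 change of -0.36 (SE 0.09, limma adjusted p = 0.184).

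C1q was set beside other genes of the cells that make it. Of 27 measured microglia and macrophage markers, 21 had a negative log2 change (49.1% of all genes did), with a median of -0.15, and 0 passed an adjusted p of 0.05 in limma. At an unadjusted p under 0.05, 10 were lower and 1 higher, against 6.51% and 7.24% of all genes. The mean log2 level of the list was 8.38 to 8.58 in wild type and 8.18 to 8.46 in knockout tumours, which overlapped, and all 27 genes had a mean above that of absent transcripts. The changes of the C1q chains, -0.50 to -0.42, were more negative than those of 21 of the 27 markers and less negative than those of 4. The 4 were the Fc receptor Fcgr3 (-0.79), the lysozyme gene Lyz2 (-0.69), the protease Ctss (-0.57) and Spi1 (-0.54), the gene of PU.1.

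Of the 27 markers, 8 had changes between -0.1 and 0.1, and Sall1, a transcription factor of microglia, went the other way. Whether the Sall1 signal came from microglia in this tumour tissue was not tested. Sall1 had the largest change of the 27 (0.85, limma adjusted p = 0.236), with the knockout above the wild type values without overlap. Tyrobp and Trem2, a signalling adaptor and its lipid receptor, had log2 changes of -0.02 and -0.07, P2ry12 one of -0.03 and the lysosomal Cd68 one of 0.11. Cx3cr1, Csf1r and P2ry13, also on the list, had lower values in knockout tumours, with log2 changes of -0.35, -0.29 and -0.40. The mean of the C1q chains minus the mean of the marker list was 2.20, 2.20 and 2.08 log2 units in wild type and 1.97, 1.88 and 1.80 in knockout tumours. These values did not overlap, with a difference of -0.28 between the groups, for which no test was made. The C1q mean alone already did not overlap, so this is no further separation, and the list mean includes Sall1. The part of microglial number in the lower C1q values was not tested.

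**Figure D3:**
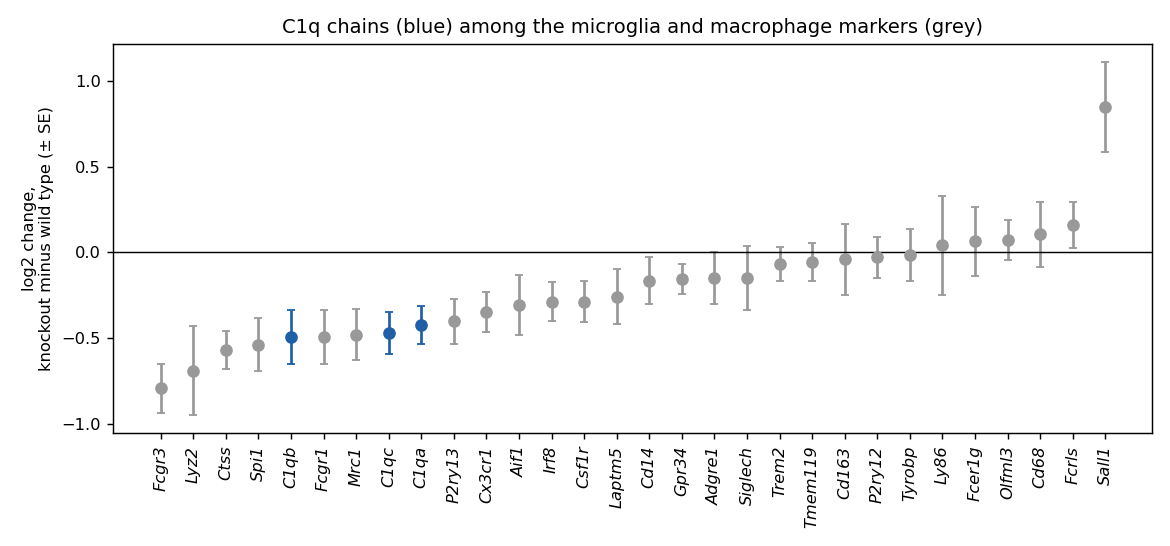
Log2 change, knockout minus wild type, with its SE, for the C1q chains (blue) and the 27 microglia and macrophage markers (grey), in order of the change. The chains lie at -0.50, -0.47 and -0.42, between Spi1 at -0.54 and P2ry13 at -0.40, while Tyrobp, Trem2 and P2ry12 lie near 0.

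Markers of other cells that can make C4 and C1 inhibitor went both ways. Of 17 measured astrocyte and Bergmann glia markers, 14 had a positive log2 change (50.9% of all genes did), with a median of 0.40. At an unadjusted p under 0.05 in limma, 6 were higher and 0 lower, against 7.24% and 6.51% of all genes. The mean level of this list was 9.23 to 10.01 in wild type and 9.85 to 10.04 in knockout tumours. C4b minus the astrocyte mean was 0.56, 0.12 and -0.74 in wild type and -1.85, -0.99 and -1.87 in knockout tumours, without overlap. C4b alone already did not overlap, and the astrocyte mean averaged higher in knockout tumours, so this is no further separation of the groups. No test was made of it. Fibroblast and meningeal markers had a median change of 0.07 (15 measured), from Aldh1a2 at -1.34 to Igf2 at 1.39. At an unadjusted p under 0.05 in limma, 4 were lower and 3 higher, against 6.51% and 7.24% of all genes. Mean levels of this list were 7.98 to 8.42 in wild type and 8.07 to 8.28 in knockout tumours. Oligodendrocyte lineage markers had a median of -0.17, with 9 of 13 measured negative, against 49.1% of all genes. At an unadjusted p under 0.05 in limma, 4 were lower (among them Sox10 at -0.69 and Pdgfra at -0.45), against 6.51% of all genes. Ermn, at 1.21, was the 1 higher, against 7.24% of all genes, and Mobp was at 0.91. Pdgfra was also on the fibroblast list. The mean level of the oligodendrocyte list was 8.20 to 8.66 in wild type and 8.12 to 8.56 in knockout tumours. For endothelium and pericytes the median was 0.04 over 18 measured markers, with mean levels of 7.90 to 8.06 and 7.87 to 8.16. Neutrophil and monocyte markers had a median of -0.16 (13 measured), with 8 of 13 above the level of absent transcripts, and lymphocyte markers one of -0.09 (11 measured). On each of these 2 lists 9 markers had a negative change, against 49.1% of all genes. At an unadjusted p under 0.05 in limma, 2 and 1 were lower and 0 higher, against 6.51% and 7.24% of all genes. Mean levels of the lymphocyte list were 5.92 to 6.04 in wild type and 5.85 to 5.91 in knockout tumours, without overlap. Those of the neutrophil and monocyte list were 6.03 to 6.16 and 5.89 to 6.07.

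Mature granule neuron markers and a choroid plexus gene followed the order of the tumours in C4b in part. The granule neuron markers had mean levels of 8.84, 9.06 and 9.20 in wild type and 10.05, 9.08 and 10.08 in knockout tumours. The tumours with the lowest C4b, knockout replicates 1 and 3, thus had the highest means. This does not hold for every marker. Of the 11 measured, 7 had a positive log2 change (50.9% of all genes did) and 4 a negative one, from -1.13 to 2.72. Ttr, a choroid plexus gene, was at 13.52, 10.80 and 8.10 in wild type and 8.71, 8.49 and 7.92 in knockout tumours, highest in wild type replicate 1, where C4b and Serping1 were highest too. On the choroid plexus and ependymal list (9 measured, median -0.31), 7 had a negative change, against 49.1% of all genes. Mean levels of that list were 7.07 to 8.32 in wild type and 7.02 to 7.19 in knockout tumours. Without wild type replicate 1 the change of C4b was -0.93 (SE 0.23). The part of these cells in the C4b and Serping1 values was not tested.

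**Figure D4:**
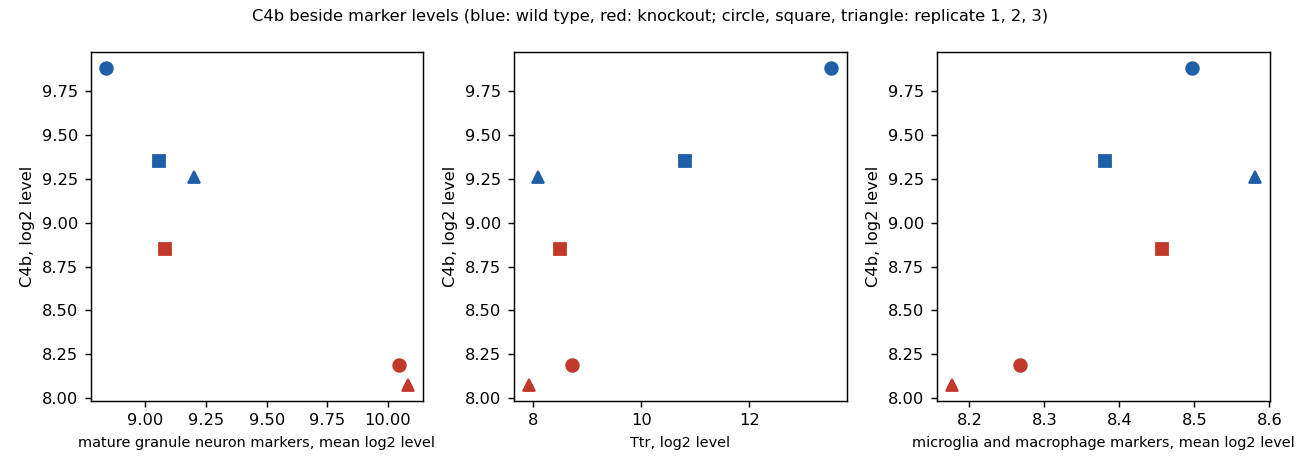
Log2 level of C4b in each tumour against the mean level of mature granule neuron markers, the level of Ttr and the mean level of microglia and macrophage markers (blue, wild type; red, knockout; circle, square and triangle for replicates 1, 2 and 3). Knockout replicates 1 and 3 have the lowest C4b (8.19 and 8.08) and the highest granule neuron values (10.05 and 10.08), and wild type replicate 1 has the highest C4b (9.88) and Ttr (13.52).

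Genes outside the pathway with the most similar profile were looked up among 11084 genes at or above the median level, by Pearson correlation over the 6 arrays. All points share the split between the groups, and with so many genes compared a high correlation is likely for any profile, so these are descriptions only. For the mean of the C1q chains they were Plekha6, Map4k4, Cacng4, Sema3e and Tox3 (r = 0.998 to 0.985), of which the semaphorin Sema3e had the largest change (-1.44, SE 0.21, limma adjusted p = 0.0583). For C4b they were Strap, Tnfrsf1b, Elavl3, Crmp1 and Dgki (r = 0.992 to 0.988). Among the C1q chains themselves r ran from 0.694 for C1qa with C1qb to 0.958 for C1qb with C1qc. None of the 10 genes was on the list of microglial markers, which is likely for any profile with at most 27 markers among 11084 genes. It does not show whether C1q followed microglial genes.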

How the data were processed

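The deposited values are log2 expression levels, for which the submitters' processing notes name RMA and oligo without versions. RMA adjusts for background, equalises arrays and summarises probes, which compresses changes of dim genes and removes a shift shared by most genes. Array medians over 41345 features ran from 6.91 to 7.00, and the files hold no detection calls. The platform annotation gave 23521 features 1 symbol, 1814 several, and 16010 are unnamed here, and 99.2% of the first matched a RefSeq gene (GRCm38.p6).

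In R 4.3.3, limma 3.58.1 (lmFit, then eBayes, two-sided) was fitted to the deposited values over 22180 genes and 6 arrays, with Benjamini-Hochberg adjustment over all genes, a threshold of 0.05 and no filter. The fit was tested on simulated data. Members and lists were chosen with earlier results of these data known. Named were all members, other complement genes past the threshold or with an unadjusted p under 0.05, up to 3 genes per marker list and the 5 most similar genes. C4a, Cd59a, Itgb2, the microglial genes with changes beyond or near those of C1q, and genes near 0 were chosen after their values were seen. So were Sall1, Cx3cr1, Csf1r, P2ry13, Aldh1a2, Igf2, Sox10, Pdgfra, Ermn and Mobp. Same-numbered tumours were not treated as paired in the main fit (see the closing section).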

Additional observations from a re-analysis of the deposited data

How the results depend on the processing

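The 19 alternatives varied array scaling, filters, variance model, weights, features, block, threshold and arrays. Only scaling, weights and omitted arrays could turn the direction of a complement gene, because the other settings left its log2 change as it was. Over all 19, 148 of 150 results for single complement genes kept their direction. The exceptions were C2, whose change ran from -0.070 without knockout replicate 3 to 0.17 without knockout replicate 2, and C5ar1, from -0.33 without wild type replicate 2 to 0.068 without wild type replicate 3. Leaving out 1 array gave 0 to 1 members past the threshold (C4b without knockout replicate 2) and 4 to 128 genes in all, against 0 and 46 with all arrays. Over all genes, 77 passed without the dimmest 25% of genes, 107 with a trend in eBayes and 131 at a threshold of 0.1. With the replicate block 12 passed and 0 members did. The deviations of same-numbered tumours correlated at -0.03, 0.05 and 0.10, which gave no sign that the numbers pair the tumours. With groups of 3 this cannot exclude a pairing. Without X and Y genes, added after the data were seen, 0 members and 36 genes passed. The other complement genes stayed at 0 in each setting. C2 and C5ar1 could not be refitted without the dimmest 50% of genes, being among them. Why these counts moved was not tested. Some of the settings had fewer genes or arrays in the fit. Groups of 3 arrays limit the precision, and no outlier test was made at that size.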

Other observations

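Genes of the interferon and STAT response, which can induce several complement genes, were measured as well. Of 17, 11 had a negative and 6 a positive log2 change (49.1% of all genes were negative), with a median of -0.23, and 0 passed an adjusted p of 0.05 in limma, while 4 were lower and 1 higher at an unadjusted p under 0.05, against 6.51% and 7.24% of all genes. Cxcl10, a chemokine induced by interferon, averaged 7.22 in wild type tumours and 6.15 in knockout ones, a log2 change of -1.07 (SE 0.18, limma adjusted p = 0.0816). Socs3, a feedback inhibitor of STAT signalling, had a log2 change of -0.70 (SE 0.17, limma adjusted p = 0.174). Psmb8, an immunoproteasome subunit, and Ifit3 had log2 changes of -0.48 and -0.36, while Stat2 had one of 0.35 and B2m one of 0.03. The mean level of the list was 7.30 to 7.69 in wild type and 7.20 to 7.29 in knockout tumours, without overlap. These genes were chosen after their values were seen.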
